A study of Mus musculus with 9 samples.

Results

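The Vps13 lipid transfer family was followed through the tibia transcriptomes of normal, diabetic and liraglutide-treated diabetic mice. Its 4 members, *Vps13a* (NCBI gene number 271564), *Vps13b* (666173), *Vps13c* (320528) and *Vps13d* (230895), were taken by their gene symbols from the 18272 genes of the expression table. All 4 passed the count filter (10 counts or more in 3 or more libraries) that left 13960 genes for testing. The family was chosen by the measured level of *Vps13a*, which was lower in untreated diabetic tibia, so that difference is described here without a test.

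VPS13 proteins are very long, rod-shaped proteins with a hydrophobic groove along which lipids can pass in bulk from one membrane to another at contact sites. They are recruited to different organelles. VPS13A works at contacts of the endoplasmic reticulum with mitochondria, lipid droplets and the plasma membrane, VPS13B at the Golgi complex, VPS13C at contacts with late endosomes and lysosomes, and VPS13D at mitochondria and peroxisomes. Loss of the human genes causes chorea-acanthocytosis (VPS13A), Cohen syndrome (VPS13B), an early-onset form of Parkinson's disease (VPS13C) and a movement disorder with ataxia (VPS13D). Chorea-acanthocytosis also affects skeletal muscle and red blood cells, and both tissues contribute RNA to a whole bone sample.

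The mice were female C57BL/6J, 10 to 11 weeks old at purchase, and each group had 3 mice with 1 tibia and 1 library per mouse. NGT mice (normal glucose tolerance) received citrate vehicle and then saline. T1D mice received a single dose of streptozotocin (STZ, 150 mg/kg), which destroys the pancreatic beta cells that make insulin, and then saline. Lira mice received the same STZ dose and then liraglutide, an agonist of the GLP-1 receptor, at 0.6 mg/kg/day. The treatment lasted 8 weeks, although the label of Lira mouse 3 gives 9 weeks. The diabetes of this model is chemically induced, not autoimmune. Since 1 library came from each mouse, the p-values measure the spread between these mice.

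The libraries held 13086373 to 16528394 counts. The tissue label was checked on marker genes. A list of 15 skeletal muscle genes took 15.9% to 23.6% of the counts in NGT, 12.4% to 24.0% in T1D and 16.2% to 21.8% in Lira libraries, although the bones had been cleaned of muscle. Osteocyte genes (6 genes) took 0.000627% to 0.00488% of the counts and osteoblast genes (10 genes) 0.0407% to 0.910%, and no gene of these 3 lists was at 0 in every library. T1D mouse 1 stood apart, with the lowest muscle share, the highest osteoblast share and 0.129% of its counts in 8 macrophage genes, against 0.00702% to 0.0193% in the other 8 libraries. Lira mouse 3 had the highest erythroid share (1.46%, against 0.0692% to 0.806% in the others) and neutrophil share (0.632%, against 0.000801% to 0.311%), and without it the median log2 fold changes of these lists for Lira against T1D went from 0.96 and 1.105 to -0.92 and -1.116. In bulk tissue, fewer cells of a type and less RNA per cell cannot be told apart.

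The start regions of *Vps13a* and *Vps13d*, the members with an entry in the sequence table used, are shown to give the sequence just before their transcript starts. Each is the 250 bases before an annotated transcript start in RefSeq's GRCm38.p6 annotation, which is not the mm9 build named for these data, written 5′ to 3′ on the minus strand that carries both genes. Capitals mark the GC box (GGGCGG or, on the other strand, CCGCCC), the classical binding sequence of the transcription factor SP1.
*Vps13a*, chr19:16780934-16781183: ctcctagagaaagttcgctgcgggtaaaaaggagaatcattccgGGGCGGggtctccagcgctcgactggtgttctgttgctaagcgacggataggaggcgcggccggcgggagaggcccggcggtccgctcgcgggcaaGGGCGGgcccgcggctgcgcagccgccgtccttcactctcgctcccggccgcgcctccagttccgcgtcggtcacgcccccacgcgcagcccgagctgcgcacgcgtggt
*Vps13d*, chr4:145195006-145195255: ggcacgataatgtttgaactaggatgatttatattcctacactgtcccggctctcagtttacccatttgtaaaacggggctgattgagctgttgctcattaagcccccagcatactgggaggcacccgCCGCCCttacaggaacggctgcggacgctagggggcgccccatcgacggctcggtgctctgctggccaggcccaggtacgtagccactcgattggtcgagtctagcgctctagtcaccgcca

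The *Vps13a* window held 2 GC boxes and the *Vps13d* window held 1. Of 32851 start regions of the same length, 32.7% held at least 1. The *Vps13a* window had 37 CG dinucleotides and 71.2% G and C bases, and 97.8% of all start regions had fewer CG dinucleotides. The *Vps13d* window had 17 and 57.6%, against a median of 6 CG dinucleotides over all start regions. On both strands, 1 CCAAT box was found in the *Vps13d* window and 0 in the *Vps13a* window (33.8% of start regions held it), with no overlap with a GC box. An E box (CACGTG, 6.02%), a cyclic AMP response element (TGACGTCA, 1.55%) and a forkhead sequence (GTAAACA, 3.17%) were found in neither window. *Vps13d* has a further annotated start, which is not shown.

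Per length, *Vps13d* was the most abundant member. FPKM (fragments per kilobase scaled by library total, as deposited by the authors) averaged 5.79 ± 1.20 (SD, n = 9 libraries) for *Vps13d*, 3.27 ± 0.70 for *Vps13c*, 2.97 ± 0.58 for *Vps13a* and 2.56 ± 0.42 for *Vps13b*. *Vps13d* was above each of the others in 9 of 9 libraries, by a ratio of mean FPKM of 1.77 to *Vps13c*. The levels of *Vps13c* and *Vps13a* did not differ beyond their spread, and *Vps13c* was the higher of the pair in 5 of 9 libraries. *Vps13a* was above *Vps13b* in 8 of 9 libraries, but their ranges over the libraries overlapped (2.11 to 3.92 and 2.22 to 3.34 FPKM). All 4 were of low to middling abundance, since between 32.3% (*Vps13b*) and 51.5% (*Vps13d*) of the tested genes had a lower mean FPKM.

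The members added together came to 15.7 ± 1.84 FPKM in NGT, 12.3 ± 2.15 in T1D and 15.8 ± 0.68 in Lira mice (mean ± SD, n = 3 each). T1D mouse 1 had the lowest sum, 10.1 FPKM. The make-up of this sum overlapped between groups. *Vps13d* made up 38.0% ± 4.40 of it in NGT, 40.0% ± 5.31 in T1D and 40.5% ± 4.57 in Lira mice. The share of *Vps13a* was 22.5% ± 2.21, 19.5% ± 4.98 and 19.5% ± 2.77 in the same order, differences smaller than the spread within T1D.

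*Vps13a* was lower in T1D than in NGT tibia in every mouse and stood between them in Lira tibia. On the CPM scale (counts scaled by the TMM-adjusted library total), its level was 37.9, 43.4 and 42.7 in NGT mice 1, 2 and 3. It was 23.8, 26.8 and 26.8 CPM in the T1D mice. It was 36.8, 36.8 and 35.5 CPM in the Lira mice. All T1D mice lay below all Lira mice, and all Lira mice lay below all NGT mice. The log2 fold change of T1D against NGT was -0.68 ± 0.13 (SE), a level 0.625 times that of NGT. Lira against T1D gave 0.49 ± 0.13, and Lira against NGT gave -0.19 ± 0.13. These 3 comparisons share mice and the first chose the gene, so no p-value is given.

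With each mouse left out in turn, the T1D difference of *Vps13a* lay between -0.74 and -0.62 on the log2 scale, and without T1D mouse 1 it was -0.62 ± 0.13. The SD within groups was 7.24% of the mean in NGT, 6.87% in T1D and 2.04% in Lira mice. On the deposited FPKM scale, which has no TMM scaling, *Vps13a* was 3.92, 3.36 and 3.25 in NGT, 2.54, 2.32 and 2.11 in T1D and 2.92, 2.88 and 3.41 in Lira mice. T1D again lay below both other groups, whereas Lira and NGT overlapped. On that scale the T1D difference was -0.44 on log2(FPKM + 1) and -0.57 on log2(FPKM + 0.1).

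**Figure D1:**
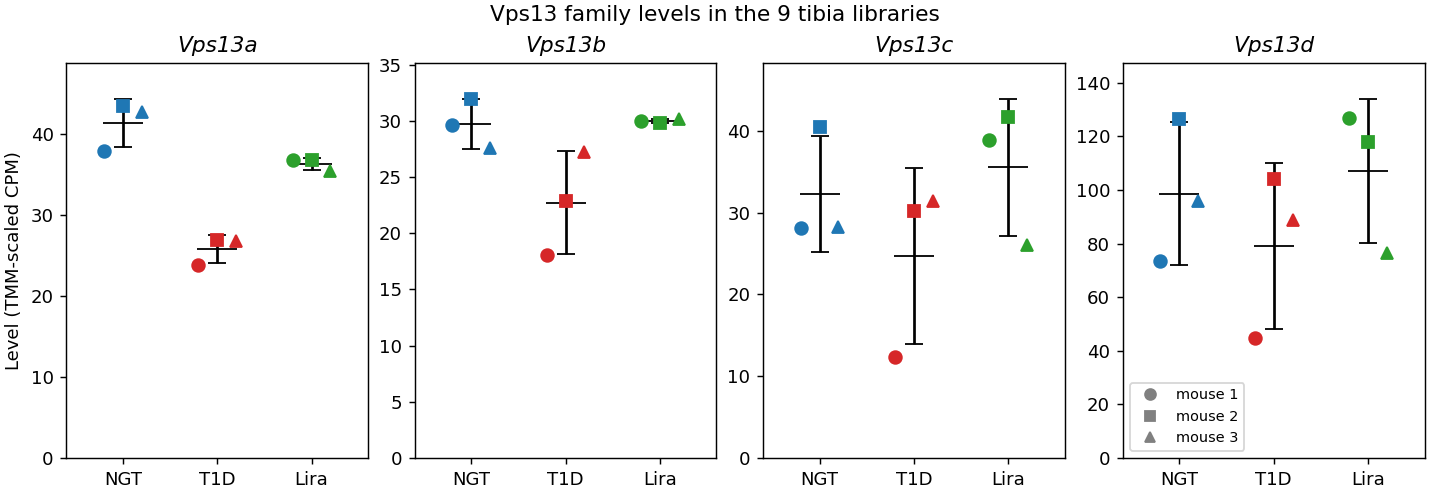
Level of each Vps13 gene in TMM-scaled CPM (vertical axes, from 0) in NGT, T1D and Lira tibia. Each symbol is 1 mouse, the wide bar is the group mean and the whiskers are 1 SD (n = 3). The T1D mice lie below all other mice for *Vps13a*, and T1D mouse 1 is the lowest point of all 4 panels.

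*Vps13b* had a similar but smaller difference. Its level was 29.6, 31.9 and 27.6 CPM in NGT mice, 18.1, 22.9 and 27.2 CPM in T1D mice and 30.0, 29.8 and 30.1 CPM in Lira mice. All T1D mice lay below all NGT and all Lira mice, but T1D mouse 3 was within 1 CPM of NGT mouse 3, and the Lira mice were nearly level. On the FPKM scale *Vps13b* was instead nearly level in T1D mice (2.22, 2.25 and 2.26 FPKM) and ran from 2.35 to 3.19 FPKM in Lira mice. The log2 fold change was -0.39 ± 0.17 (SE) for T1D against NGT. For Lira against T1D it was 0.40 ± 0.17, with a 95% confidence interval of 0.015 to 0.79, an unadjusted p-value of 0.0434 and an adjusted p-value of 0.978 (quasi-likelihood test of edgeR, Benjamini-Hochberg adjustment over all tested genes). The difference was therefore not a DEG (fold change over 2 and adjusted p-value under 0.05). The two-sided exact permutation test over the 6 mice gave p = 0.1, the smallest it can give with 3 against 3. Lira against NGT was 0.013 ± 0.17 (interval -0.37 to 0.40, adjusted p = 0.999 in the same edgeR test). Without T1D mouse 1, T1D against NGT was -0.25 ± 0.15 and Lira against T1D 0.26 ± 0.15. The latter was 0.17 ± 0.18 on log2(FPKM + 1) and 0.23 ± 0.24 on log2(FPKM + 0.1) with limma.

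*Vps13c* overlapped between the 3 groups. Its level was 28.1, 40.5 and 28.3 CPM in NGT mice, 12.3, 30.2 and 31.5 CPM in T1D mice and 38.8, 41.7 and 26.0 CPM in Lira mice. T1D mouse 1 was far below all other mice. With the replicate numbers taken as pairs, *Vps13c* was lower in the T1D than in the NGT mouse in 2 of 3 pairs. The log2 fold change of T1D against NGT was -0.39 ± 0.36, and it was -0.065 ± 0.25 without that mouse. It was -0.19 ± 0.40 without NGT mouse 2, which had the highest NGT level. Lira against T1D was 0.53 ± 0.36 (interval -0.29 to 1.34, adjusted p = 0.978 by edgeR, two-sided exact permutation p = 0.3). Without T1D mouse 1 this was 0.20 ± 0.25. Lira against NGT was 0.14 ± 0.36 (interval -0.67 to 0.95, adjusted p = 0.999 by edgeR). With a mouse left out it ran from 0.0047 (without Lira mouse 2) to 0.33 (without NGT mouse 2).

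*Vps13d* overlapped between the groups as well. It was lower in the T1D than in the NGT mouse for each of the 3 label numbers, but the labels do not name pairs of mice. Its level was 73.4, 126 and 95.9 CPM in NGT mice, 44.6, 104 and 88.8 CPM in T1D mice and 127, 118 and 76.3 CPM in Lira mice. The lowest value was again that of T1D mouse 1. The log2 fold change of T1D against NGT was -0.32 ± 0.35, but -0.030 ± 0.29 without T1D mouse 1 and -0.096 ± 0.38 without NGT mouse 2. With the replicate block and only these 2 groups it was -0.37 ± 0.16, and that of *Vps13c* was -0.48 ± 0.27. That setting was added after seeing the data and takes mice of the same number as pairs, which the labels do not state. Lira against T1D was 0.43 ± 0.35 (interval -0.36 to 1.22, adjusted p = 0.978 by edgeR, two-sided exact permutation p = 0.4), and it was 0.15 ± 0.29 without T1D mouse 1. Lira against NGT was 0.12 ± 0.35 (interval -0.67 to 0.91, adjusted p = 0.999 by edgeR), and its sign turned without NGT mouse 1 or without Lira mouse 1. The Lira against T1D intervals of *Vps13c* and *Vps13d* reach fold changes of 2.53 and 2.33, so the data leave room for differences of over 2-fold.

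Across all tested genes, 0 genes (0%) were DEGs in each of the 3 comparisons by edgeR. An unadjusted p-value under 0.05 in that test was reached by 552 genes (3.95%) for T1D against NGT, 465 (3.33%) for Lira against T1D and 109 (0.781%) for Lira against NGT. The higher and lower genes were 2.36% and 1.6% of those tested in the first comparison, 1.55% and 1.78% in the next, and 0.487% and 0.294% in the last. With DESeq2, 0 genes were DEGs for T1D against NGT and for Lira against NGT, and 1 gene, *Gpm6b*, which is no Vps13 gene, was a DEG for Lira against T1D. In 5.08% of the tested genes all T1D mice lay below all NGT mice, as in *Vps13a* and *Vps13b*, a contrast that the choice of the family had used. In 3.74% all Lira mice lay above all T1D mice, as in the same pair of members. In 1.78% all Lira mice lay below all NGT mice, as in *Vps13a* but in no other member. The opposite orders were found in 3.52% (T1D above NGT), 3.4% (Lira below T1D) and 2.49% (Lira above NGT) of the tested genes, and in 0 members.

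**Figure D2:**
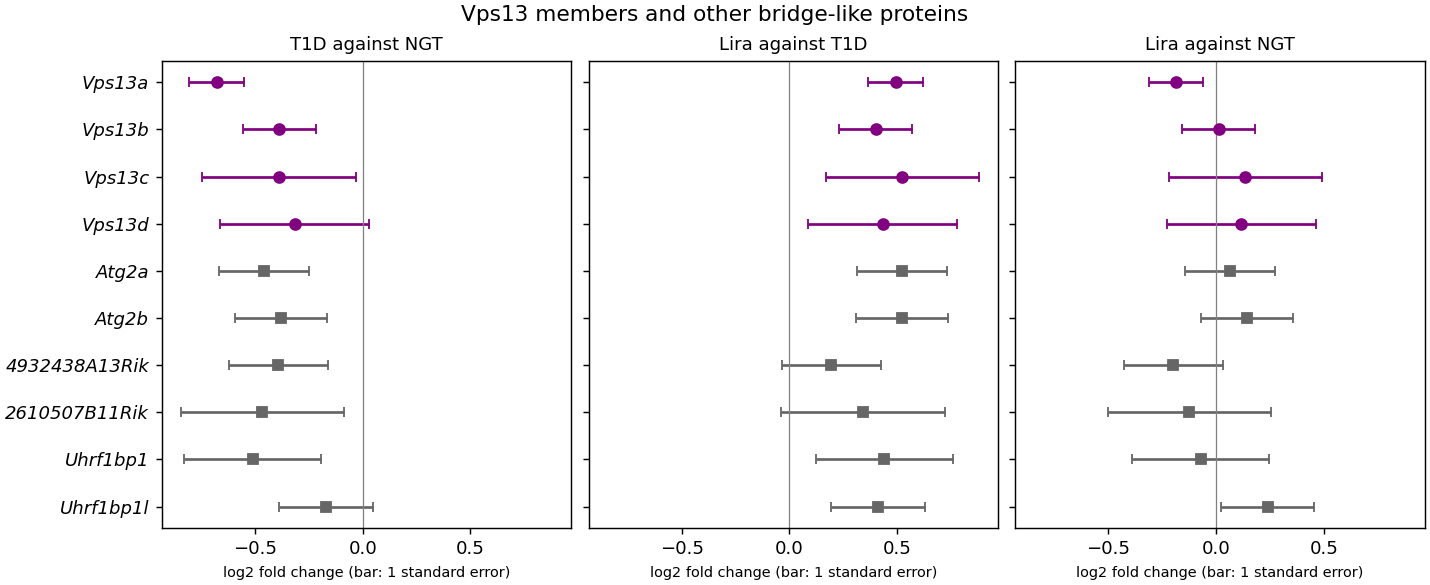
Log2 fold changes (horizontal axes) with 1 standard error from the fit over all 9 libraries, for the 4 Vps13 genes (circles) and 6 other genes of bridge-like lipid transfer proteins (squares). In T1D against NGT all 10 genes lie below 0, and in Lira against T1D all 10 lie above 0. Of all 13960 tested genes, 6688 were below 0 in the first comparison and 7714 above 0 in the next. Both comparisons share the T1D mice.

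By their distance in pattern over the 9 libraries the members fell into 2 pairs, but the correlations did not bring *Vps13a* and *Vps13b* together in this way. *Vps13b* correlated at r = 0.838 with *Vps13c* and 0.825 with *Vps13a*. In deviations from group means *Vps13a* correlated at 0.596 with *Vps13b* and 0.893 with *Vps13d*. The distances of *Vps13a* also draw on the T1D levels that chose the family. The root-mean-square difference between centred log2 CPM values was 0.147 for *Vps13c* and *Vps13d* and 0.166 for *Vps13a* and *Vps13b*, and it was 0.322 to 0.390 for the other 4 pairs. *Vps13c* and *Vps13d* correlated at Pearson's r = 0.956 (two-sided exact permutation p = 0.000361, adjusted over 6 pairs 0.00217) and Spearman's rho = 0.867 (permutation p = 0.00451, adjusted 0.0271) over the 9 mice. Without T1D mouse 1 and Lira mouse 2, the libraries farthest from the median of *Vps13c*, r was 0.894. The deviations from the group means correlated at 0.946, so the relation held within groups.

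The relations of *Vps13b* with these genes were weaker without T1D mouse 1. *Vps13b* and *Vps13c* had r = 0.838 (permutation p = 0.0208, adjusted 0.0416) and rho = 0.433 (permutation p = 0.25, adjusted 0.27), and r was 0.371 without T1D mouse 1 and 0.462 without T1D mice 1 and 2. *Vps13b* and *Vps13d* had r = 0.708 (permutation p = 0.0448, adjusted 0.0646) and rho = 0.517 (permutation p = 0.162, adjusted 0.27), and r was 0.109 without T1D mouse 1 and 0.381 without T1D mice 1 and 2. The deviations from the group means correlated at 0.823 and 0.652 for these pairs. For *Vps13a*, whose levels chose the family, r is given as a description. It was 0.825 with *Vps13b*, 0.621 with *Vps13c* and 0.580 with *Vps13d*, without T1D mouse 1 it was 0.732, 0.224 and 0.198, and without T1D mice 1 and 3 it was 0.793, 0.221 and 0.093. The deviations from the group means correlated at 0.596, 0.796 and 0.893.

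The pair *Vps13c* and *Vps13d* was low in the libraries with the smallest share of muscle transcripts. The muscle list took 15.9% of the counts in NGT mouse 1, 12.4% in T1D mouse 1 and 16.2% in Lira mouse 3, and 20.6% to 24.0% in the other 6 libraries. These 3 mice had the 3 lowest CPM levels of *Vps13d* (73.4, 44.6 and 76.3) and of *Vps13c* (28.1, 12.3 and 26.0). They also had the only TMM factors over 1.1 (1.21, 1.25 and 1.12). On the FPKM scale only T1D mouse 1 remained lowest for both genes, with 3.47 FPKM of *Vps13d* and 1.86 FPKM of *Vps13c*. The same mice also had the lowest *Vps13a* level of their own groups (37.9, 23.8 and 35.5 CPM), whereas *Vps13b* had its lowest level of the group in T1D mouse 1 but in neither of the others. The part of muscle content in the levels of the members was not tested.

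Of the 10409 genes with a mean of at least 5 CPM, those closest in pattern to each member were found by the same root-mean-square difference over 9 libraries. *Fgfr1op* (0.102), *Brwd1* (0.104) and *Kdm6b* (0.118), the last a histone H3K27 demethylase, were closest to *Vps13a*, against a median of 0.374 over all these genes. *Kmt2c* (0.0465), a histone H3K4 methyltransferase, *Zzef1* (0.0605) and *Cep295* (0.0826) were closest to *Vps13b* (median 0.342). *Kmt2c* had 71.4, 84.9 and 67.7 CPM in NGT, 44.4, 59.1 and 69.5 in T1D and 77.0, 76.1 and 73.0 in Lira mice, the same order of T1D mice as *Vps13b*. *Sec31b* (0.121) and *Pcnt* (0.151), a centrosome protein, were among the closest to *Vps13c* (median 0.521). *Tsc1* (0.0981), a brake on mTORC1 signaling, *Abcc9* (0.108), a subunit of ATP-sensitive potassium channels in muscle, and *Sympk* (0.114) were closest to *Vps13d* (median 0.479).

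**Figure D3:**
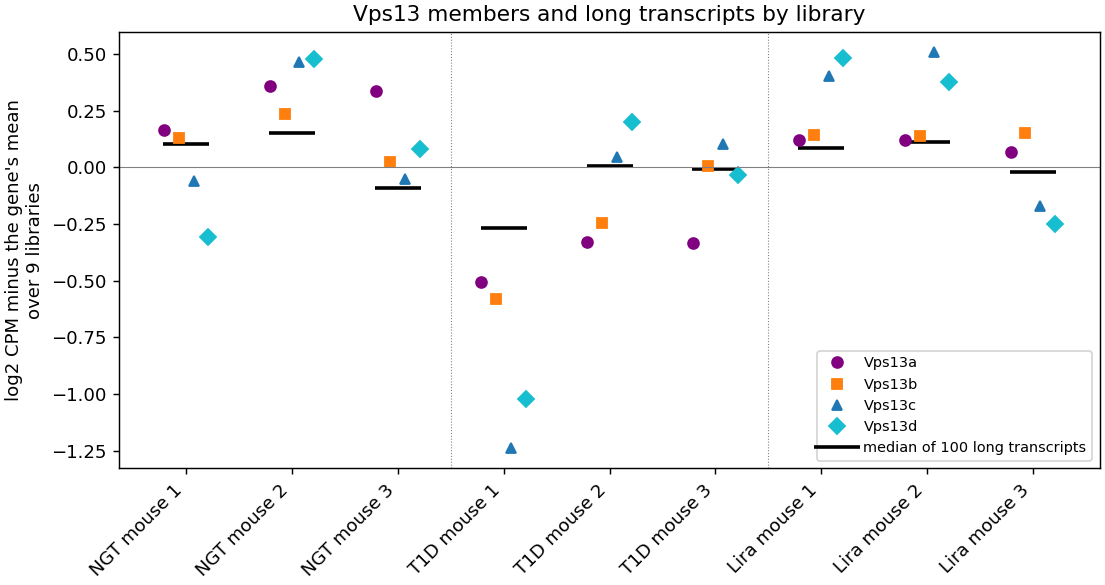
Centred log2 CPM (each gene's value minus its mean over the 9 libraries, vertical axis) of the 4 Vps13 genes in each library, with the median of the 100 longest transcripts as a black bar. *Vps13c* and *Vps13d* are both lowest in T1D mouse 1, whereas *Vps13a* is below 0 in all 3 T1D mice and above 0 in the other 6.

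Transcript length moved with the T1D comparison. The length implied by count and FPKM was 11570 bases for *Vps13a*, 10635 for *Vps13b*, 9273 for *Vps13c* and 16024 for *Vps13d* (medians over libraries), so all 4 are long transcripts. Over all tested genes, the median log2 fold change of T1D against NGT went from 0.12 in genes under 1000 bases (962 genes) to -0.096 in genes of 8000 bases and over (614 genes). In the 100 longest transcripts, which include *Vps13d*, it was -0.17, and 68 were below 0. For Lira against T1D the median of these 100 was 0.18. Without T1D mouse 1 the first of these medians became 0.0038 for the shortest class and -0.030 for the longest, and -0.087 for the 100 longest. With the libraries scaled so that the long transcripts were level, a setting chosen after seeing the data, T1D against NGT was -0.54 ± 0.14 for *Vps13a*, -0.26 ± 0.15 for *Vps13b*, -0.28 ± 0.30 for *Vps13c* and -0.21 ± 0.30 for *Vps13d*. This scaling moved the median of all genes from 0.017 to 0.16.

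**Figure D4:**
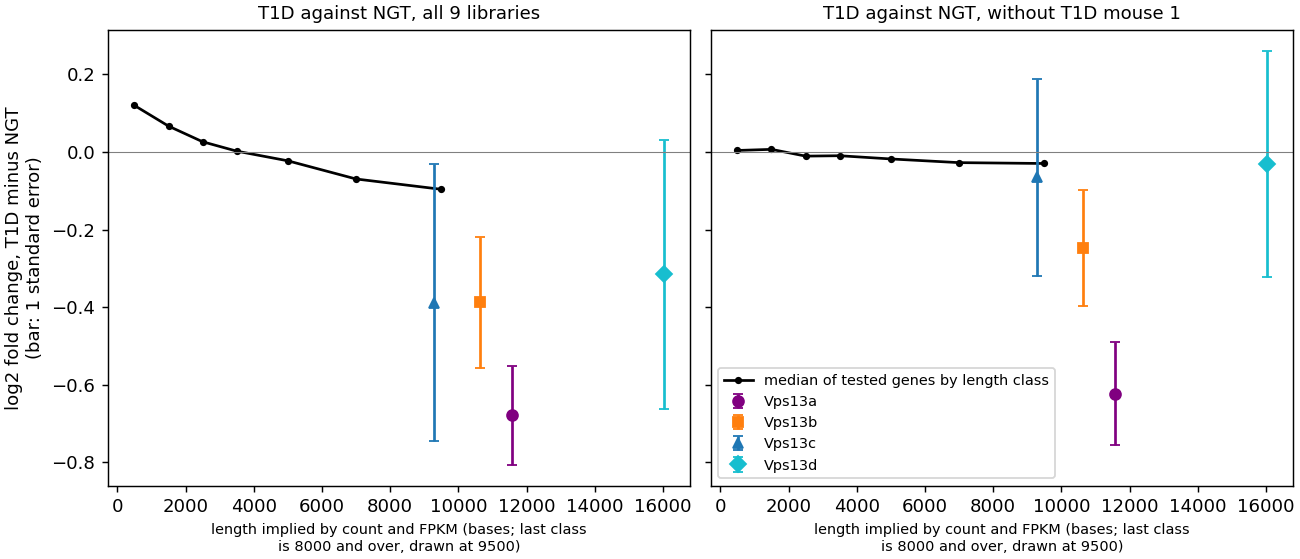
Median log2 fold change of T1D against NGT (vertical axis) by class of implied transcript length in bases (horizontal axis, black line), with the 4 Vps13 genes and 1 standard error, for all 9 libraries and without T1D mouse 1. The class medians run from 0.12 to -0.096 with all libraries and from 0.0038 to -0.030 without T1D mouse 1, and *Vps13a* is at -0.68 and -0.62.

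The other bridge-like lipid transfer proteins had the same sign as the Vps13 genes. The list held the genes of the autophagy proteins ATG2A and ATG2B, which feed lipids to the growing autophagosome, and 4 further genes of this fold, *4932438A13Rik*, *2610507B11Rik*, *Uhrf1bp1* and *Uhrf1bp1l*. In T1D against NGT, 0 of 6 reached an unadjusted p-value under 0.05 by edgeR and all 6 were below 0, with a median log2 fold change of -0.43, against 0.017 over all tested genes. In Lira against T1D, 2 of 6 reached that level, both higher, and all 6 were above 0 with a median of 0.43, against 0.042. Of all 13960 tested genes, 552 (3.95%) reached that level in the first comparison and 6688 were below 0. In the next, 216 (1.55%) were higher at that level and 7714 were above 0. These comparisons share the T1D mice. T1D mouse 1 had the lowest level of 4 of the 6 genes. Without it the medians were -0.25 and 0.36, 1 of the 6 was below 0 in Lira against T1D, and 0 genes reached that level in either comparison. Without NGT mouse 1, 1 of the 6 was lower at that level and the median was -0.54 in T1D against NGT. Transcript length moved with this comparison over all genes, and its part in these values was not tested.

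*Atg2a* was at 40.1, 56.5 and 39.1 CPM in NGT, 25.6, 36.5 and 36.6 in T1D and 51.5, 49.3 and 41.3 in Lira mice. All T1D mice lay below all other mice. Its log2 fold change was -0.46 ± 0.21 for T1D against NGT (unadjusted p = 0.0572 by edgeR) and 0.52 ± 0.21 for Lira against T1D (unadjusted p = 0.0347). *Atg2b* was at 33.3, 50.7 and 41.2 CPM in NGT, 24.9, 33.5 and 37.9 in T1D and 46.5, 51.4 and 40.5 in Lira mice, so that T1D lay below Lira but overlapped NGT. Its log2 fold changes were -0.38 ± 0.21 and 0.52 ± 0.21. The other 4 genes overlapped between all groups. Their log2 fold changes of T1D against NGT were -0.39 ± 0.23 for *4932438A13Rik*, -0.47 ± 0.38 for *2610507B11Rik*, -0.51 ± 0.32 for *Uhrf1bp1* and -0.17 ± 0.22 for *Uhrf1bp1l*, and those of Lira against T1D were 0.19 ± 0.23, 0.34 ± 0.38, 0.44 ± 0.32 and 0.41 ± 0.22.

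Of 10 genes whose proteins bind or recruit VPS13 proteins, 1 was higher and 0 lower at an unadjusted p-value under 0.05 in T1D against NGT, and 1 was higher and 0 lower in Lira against T1D. Their median log2 fold changes were -0.087 and 0.0028. Over all tested genes, 2.36% were higher and 1.6% lower at that level in the first comparison, and 1.55% and 1.78% in the next. *Xk*, the scramblase partner of VPS13A that carries the Kx blood group antigen, was at 18.7, 27.6 and 26.3 CPM in NGT, 15.8, 16.0 and 21.6 in T1D and 22.6, 24.4 and 30.0 in Lira mice. Lira lay above T1D, and NGT overlapped both. Its log2 fold change was -0.44 ± 0.22 for T1D against NGT (unadjusted p = 0.0725 by edgeR) and 0.53 ± 0.22 for Lira against T1D (unadjusted p = 0.0383). *Stx6*, a syntaxin linked to VPS13B, had the opposite sign. It was at 10.7, 8.74 and 8.79 CPM in NGT and 16.4, 13.7 and 11.8 in T1D mice, which did not overlap, and the log2 fold change was 0.57 ± 0.20 (unadjusted p = 0.0209). It was at 10.5, 12.2 and 9.76 CPM in Lira mice, and Lira against T1D gave -0.37 ± 0.20. Without T1D mouse 1, 0 of the 10 genes reached that level in either comparison. In T1D against NGT, 1 was higher and 1 lower without NGT mouse 1, and also without T1D mouse 3.

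The remaining partners overlapped between all groups. *Vapa* and *Vapb*, the endoplasmic reticulum anchors of VPS13 proteins, had log2 fold changes of -0.087 ± 0.19 and 0.027 ± 0.29 for T1D against NGT. *Rhot1* and *Rhot2*, which encode the mitochondrial Miro proteins that recruit VPS13D, had -0.18 ± 0.20 and -0.49 ± 0.28. *Rab7*, the lysosomal partner of VPS13C, had -0.063 ± 0.31. *Rab6a*, *Stx12* and *Fam177a*, linked to VPS13B, had -0.13 ± 0.17, -0.088 ± 0.15 and 0.36 ± 0.59. Between Lira and T1D the same 8 genes lay between -0.78 ± 0.59 (*Fam177a*) and 0.55 ± 0.28 (*Rhot2*).

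Wider groups of the same biology are set beside the share of all tested genes with an unadjusted p-value under 0.05. This share was 3.95% for T1D against NGT and 3.33% for Lira against T1D. A count of 0 in lists this short is near these shares. For T1D against NGT, 0 of 44 genes of shuttle-like lipid transfer proteins, 0 of 33 core autophagy genes, 0 of 14 genes of mitochondrial dynamics and 0 of 15 genes of other vacuolar protein sorting complexes had an unadjusted p-value under 0.05 by edgeR. Their median log2 fold changes were -0.019, -0.080, -0.12 and -0.098. These counts became 1, 2, 1 and 0 lower without NGT mouse 1 and 2, 0, 1 and 0 lower with the replicate block, and 1 shuttle-like gene was higher without T1D mouse 3. Between Lira and T1D the counts were 2, 0, 0 and 0, all higher (0 in each list without T1D mouse 1 and 2, 1, 3 and 1 without Lira mouse 3), and the medians were 0.10, 0.14, 0.12 and 0.16. *Stard7*, a phosphatidylcholine carrier, had a log2 fold change of 0.12 ± 0.30 and *Scp2*, the sterol carrier protein, -0.021 ± 0.15 for T1D against NGT. *Sqstm1*, the autophagy receptor p62, had -0.037 ± 0.31 and *Gabarap* 0.15 ± 0.22. *Pink1* and *Bnip3*, which act in mitophagy, had -0.13 ± 0.36 and 0.18 ± 0.36. The retromer genes *Vps35* and *Vps26a* had -0.074 ± 0.16 and -0.061 ± 0.16. Of the other genes of neuroacanthocytosis, a group of disorders with misshapen red blood cells, *Pank2* had 0.22 ± 0.16 and *Jph3* was below the count filter.

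Each gene next to a member had a T1D difference under 2 of its own standard errors. Beside *Vps13a*, *Gna14* had a log2 fold change of -0.025 ± 0.53 and *Prune2* 0.42 ± 0.89 for T1D against NGT. Beside *Vps13b*, *Osr2* had 0.56 ± 0.53 and *Cox6c* -0.16 ± 0.22. Beside *Vps13c*, *Tln2* had -0.054 ± 0.38 and *Rora* -0.086 ± 0.38. *Pramel12* (0.065 ± 0.21) and *Tnfrsf1b* (1.22 ± 0.80) flanked *Vps13d*, and *Dhrs3*, which overlaps it in the GRCm38.p6 annotation, had 0.13 ± 0.27. Since the strand setting of the counting is not given in the sources used here, reads of overlapping genes cannot be told apart.

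Cell type markers moved with the comparison too. For T1D against NGT, 5 of 8 macrophage genes, 2 of 10 osteoclast genes, 1 of 10 osteoblast genes and 2 of 6 osteocyte genes were higher at an unadjusted p-value under 0.05 by edgeR, and 1 of 15 muscle genes was lower. Of all tested genes, 2.36% were higher and 1.6% lower at that level. The counts were 0 in either direction for the erythroid (11 genes), neutrophil (12), chondrocyte (4), adipocyte (8), B cell (8) and endothelial (6) lists. For Lira against T1D, 2 macrophage, 1 osteoclast and 1 osteocyte gene were lower and 1 muscle and 1 endothelial gene were higher. Of all tested genes, 1.78% were lower and 1.55% higher in that comparison. With the replicate block, 6 osteoclast, 7 macrophage and 2 osteoblast genes were higher and 2 muscle genes lower in T1D than in NGT, against 424 higher and 328 lower of all 13960 tested genes. When T1D mouse 1 was left out, 0 macrophage, 0 osteoclast, 0 osteoblast and 1 osteocyte gene were higher and 1 macrophage and 0 muscle genes lower, and the medians of the macrophage and osteoblast lists went from 2.72 and 1.04 to 0.42 and -0.34 on the log2 scale. For Lira against T1D the same omission left 1 macrophage, 1 chondrocyte and 1 muscle gene higher and 0 genes of these lists lower, and the macrophage median went from -2.003 to 0.17. Without T1D mouse 3, 4 macrophage, 1 osteoclast, 1 osteoblast and 1 osteocyte gene were lower in Lira than in T1D and 1 erythroid and 1 endothelial gene higher, and without Lira mouse 3, 0 genes were lower and 2 endothelial and 1 muscle gene higher. Without NGT mouse 1, 7 macrophage, 4 osteoclast, 1 osteoblast, 1 osteocyte, 1 chondrocyte, 1 adipocyte and 1 B cell gene were higher in T1D than in NGT and 0 muscle genes lower, and the medians of the neutrophil, B cell and erythroid lists went from -0.0034, -0.35 and 0.63 to 2.05, 1.36 and 2.14. Without T1D mouse 3, 7 macrophage, 1 osteoclast and 1 osteocyte gene were higher in T1D than in NGT and 0 muscle genes lower. The part of these cell types in the levels of the 4 members was not tested.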

How the data were processed

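The authors extracted RNA with TRIzol, treated it with DNase I, enriched mRNA with oligo(dT) beads, sequenced DNA nanoballs and mapped cleaned reads to the mouse genome. The submitters' processing notes name mm9. Aligner, counting tool, annotation and strand setting are not given in the sources used here. The authors deposited expected counts per gene, not normalized (30.2% are not whole numbers), and FPKM values, scaled for length and library total. The deposited columns of group averages were not used. Unmapped sample columns numbered 0.

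Counts were rounded and tested with edgeR 4.0.16 in R 4.3.3 (TMM, glmQLFit and glmQLFTest on 3 group means over all 9 libraries, with 1 shared estimate of the spread). Genes needed 10 counts in 3 libraries, and DEGs were those with a fold change over 2 whose p-value, adjusted after Benjamini and Hochberg, was under 0.05. The limit that a count of 0 sets is 3 counts (0.163 to 0.238 CPM), for counting error only. The common biological coefficient of variation was 0.433. Standard errors were derived from the F statistic. For patterns over libraries, log2 CPM with a prior count of 2 was used. Correlations between members were tested by two-sided exact permutation in Python 3.11.15 with numpy 2.4.6. Group means of members were compared by two-sided exact permutation in R. The edgeR test was checked on simulated data.

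The members, gene lists and tests were chosen with earlier results of these data known. Lists were described by counts and medians, without a list test. Named were the 4 members, all tested genes of the bridge-like and partner lists, at most the 2 most abundant tested genes of the other lists, the 3 closest genes by pattern (1 of which is not reported here) and the nearest tested neighbours. *2610507B11Rik* was matched by gene number. Of 18272 gene numbers, 18143 were in the reference annotation, 17778 under the same symbol. Start regions were found for 2 of the 4 members.

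Alternatives were DESeq2 1.42.0, library size in place of TMM, no count filter, a fit of only the compared groups, a replicate block by label number, edgeR's robust option, limma 3.58.1 on log2(FPKM + 1) and log2(FPKM + 0.1), and leaving out each mouse. Scaling to the long transcripts and the block with only the 2 groups compared were added after seeing the data. In the pairing check, NGT and T1D mice of the same label number correlated at 0.583, 0.647 and 0.283 in their deviations from group means across genes. The like values were -0.244, 0.615 and 0.271 between T1D and Lira mice and -0.173, 0.727 and 0.012 between NGT and Lira mice. NGT mouse 1 and Lira mouse 3, of unlike number, correlated at 0.78. These values cannot tell whether the numbers pair mice. The labels name no pairs, and the main fit was unpaired.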

Additional observations from a re-analysis of the deposited data

How the results depend on the processing

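The T1D differences of *Vps13a*, *Vps13b*, *Vps13c* and *Vps13d* kept their sign under all 19 alternatives, from -0.74 to -0.44, -0.54 to -0.21, -0.60 to -0.065 and -0.57 to -0.030 on the log2 scale. For *Vps13a*, T1D against NGT was -0.44 on log2(FPKM + 1), -0.57 on log2(FPKM + 0.1) and -0.54 with long transcripts level, and Lira against T1D was 0.29, 0.39 and 0.35 in the same order and 0.41 with library size in place of TMM. Lira against T1D on log2(FPKM + 1) was 0.33 for both *Vps13c* and *Vps13d*. Lira against NGT turned sign for *Vps13b* with library size (-0.0026), on log2(FPKM + 1) (-0.039) and log2(FPKM + 0.1) (-0.051), and its range with a mouse left out was -0.038 (without NGT mouse 3) to 0.068. That of *Vps13d* was -0.055 (without NGT mouse 1) to 0.34, with -0.021 without Lira mouse 1. Over the alternatives, the adjusted p-values of *Vps13b*, *Vps13c* and *Vps13d* in both Lira comparisons were 0.751 to 1. DEGs numbered 0 throughout, except 1 for Lira against T1D with DESeq2. The cause of these changes was not tested. With a mouse left out, r lay between 0.73 and 0.90 for *Vps13a* and *Vps13b*, 0.22 and 0.71 for *Vps13a* and *Vps13c*, 0.37 and 0.91 for *Vps13b* and *Vps13c*, 0.11 and 0.83 for *Vps13b* and *Vps13d*, and 0.89 and 0.97 for *Vps13c* and *Vps13d*. That of *Vps13b* and *Vps13c* was 0.51 with library size and 0.40 on log2(FPKM + 1), and its call was lost there and without NGT mouse 2, T1D mouse 1, T1D mouse 3, Lira mouse 1 or Lira mouse 2, while *Vps13b* and *Vps13d* gained one without T1D mouse 2. With library size and on log2(FPKM + 1), r was 0.26 and 0.12 for *Vps13b* and *Vps13d*. It was 0.31 and 0.37 for *Vps13a* and *Vps13c*, and 0.20 and 0.21 for *Vps13a* and *Vps13d*. The call of *Vps13c* and *Vps13d* held in all of these settings.

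With the replicate block, pairing mice by number, T1D against NGT was -0.68 for *Vps13a*, -0.40 for *Vps13b*, -0.42 for *Vps13c* and -0.33 for *Vps13d*, and no tested call of a member in the Lira comparisons changed. With the block and only the 2 groups compared it was -0.68, -0.40, -0.48 and -0.37 in the same order, 1952 genes had an unadjusted p-value under 0.05, against 552 without it, and 0 were DEGs. With the block over all 9 libraries, 424 of the 13960 tested genes were higher and 328 lower in T1D than in NGT at that level, and 263 higher and 244 lower in Lira than in T1D. Of the lists, 1 bridge-like, 1 partner, 1 mitochondrial dynamics, 2 shuttle-like and 3 scramblase genes were lower in T1D than in NGT and 1 neutrophil and 1 chondrocyte gene higher, and for Lira against T1D 3 bridge-like, 2 partner, 1 shuttle-like and 2 muscle genes were higher, 5 osteoclast and 1 osteoblast gene lower and 0 macrophage or endothelial genes changed. The count over all genes was 1021 without NGT mouse 1, 254 without NGT mouse 3 and 225 without NGT mouse 2. For Lira against T1D it went from 465 to 740 without Lira mouse 3, 706 without T1D mouse 3, 299 and 285 on the FPKM scales, 297 with only the 2 groups compared and 259 without Lira mouse 1. For Lira against NGT it went from 109 to 449 without Lira mouse 2, 313 without NGT mouse 1 and 59 without NGT mouse 3. The members had 227 to 1776 counts per library, and 3 mice a group limit the precision.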

Other observations

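Scramblases, which level lipids between the leaflets of the membranes that bridge-like proteins connect, had 14 tested genes. For T1D against NGT, 1 was higher and 1 lower at an unadjusted p-value under 0.05 by edgeR, and the median log2 fold change was 0.076. Between Lira and T1D, 2 were higher and 1 lower, with a median of 0.0098. Over all tested genes, 2.36% were higher and 1.6% lower at that level in the first comparison, and 1.55% and 1.78% in the next. Without T1D mouse 1, 0 scramblase genes were higher and 1 lower in each of these comparisons. In T1D against NGT, 1 was higher and 2 lower without NGT mouse 1, and 1 higher and 3 lower without T1D mouse 3. The most abundant scramblase genes, *Atg9a*, whose protein is the partner of ATG2 proteins, and *Vmp1* had -0.25 ± 0.32 and 0.023 ± 0.21 for T1D against NGT.

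Besides *Xk*, the genes past that level were *Xkrx* and *Plscr4*, named after their values were seen. *Xkrx*, a relative of *Xk*, was at 3.05, 2.63 and 2.22 CPM in NGT, 1.14, 1.57 and 1.33 in T1D and 2.14, 3.19 and 2.30 in Lira mice. All T1D mice lay below all others, with log2 fold changes of -0.96 (unadjusted p = 0.017 by edgeR) for T1D against NGT and 0.91 (unadjusted p = 0.0218) for Lira against T1D. *Plscr4*, a phospholipid scramblase family member, was at 12.1, 9.67 and 10.3 CPM in NGT, 17.1, 15.8 and 13.7 in T1D and 9.28, 11.4 and 8.96 in Lira mice. All T1D mice lay above all others, with log2 fold changes of 0.54 (unadjusted p = 0.0196) and -0.66 (unadjusted p = 0.00748). No scramblase had an adjusted p-value below 0.977 in T1D against NGT or 0.978 in Lira against T1D, the lowest over all tested genes in edgeR's test.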
